A study of Mus musculus with 24 samples.

Results

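Striatal RNA of R6/1 mice treated with RGFP109 was compared with that of R6/1 mice treated with vehicle, gene by gene, across cell classes and pathways. The genes were all entries of the deposited R6/1 comparison with at least 1 FPKM (fragments per kilobase of exon and per unit of mapped fragments, a level scaled by transcript length and library size) in either group. This gave 13719 of 24341 entries, of which 12718 were protein-coding in RefSeq. R6/1 mice were male, carried 1 copy of a transgene with exon 1 of human HTT and an expanded CAG repeat, and were kept on a C57BL/6J background. The transgene is human sequence and is not an entry of the mouse tables, so its level was not read here. RGFP109 was injected intraperitoneally at 30 mg/kg, 5 times a week for 3 weeks and over 23 days in all, from an age of 11 to 14 weeks. The vehicle groups received an equal volume of solvent, dimethyl sulfoxide diluted in saline, and all mice were killed 18 h after the last injection at 14 to 17 weeks. The R6/1-vehicle group had 6 libraries and the R6/1-RGFP109 group had 7, of 24 libraries in all. Male wild type littermates on the same schedule, 5 with vehicle (WT-vehicle) and 6 with RGFP109 (WT-RGFP109), share no library with the R6/1 pair and were set beside it.

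RGFP109 inhibits HDAC1 and HDAC3, class I histone deacetylases that work inside repressor complexes such as NuRD, Sin3, CoREST and NCoR. They remove acetyl groups from histone tails and other proteins, and inhibitors of the class are used to ask which genes deacetylation holds down. The striatum is made mostly of GABAergic projection neurons that carry either the dopamine D1 receptor with substance P and dynorphin or the D2 receptor with enkephalin. Loss of their transcripts is a hallmark of Huntington's disease and of its mouse models. The striatum borders the lateral ventricle, with its ependymal lining and choroid plexus, and lies under the neocortex, so genes of those tissues were followed together with the striatal ones.

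The deposited tables hold 1 pooled FPKM value per group. No spread between libraries, no n behind a single value and no test could be obtained from them, and every difference below is a description of 2 pooled values. Values per library in the supplement of the study were not used here. Whether a single library sets a group value was therefore not tested, and a doubt on this point applies most to genes that are high in a tissue next to the striatum and low in the striatum itself. Read counts were not used, so sequencing depth is unknown here and counting error is not given. Ratios are log2 ratios of R6/1-RGFP109 to R6/1-vehicle after adding 0.05 FPKM to both, folds are plain ratios of FPKM, and a gene was called past the fold at an absolute log2 ratio above 0.5, a 1.41-fold difference. The FPKM values of a group differed between its tables by a common factor, with median ratios from 0.962 to 0.998, so levels of R6/1 and wild type mice come from separately scaled tables.

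Most of the transcriptome was at the same level in both R6/1 groups. Among protein-coding members the log2 ratio had a median of 0.003 and an SD of 0.16, and its 5th and 95th percentiles were -0.17 and 0.16. Past the fold, 45 protein-coding members (0.354%) were higher and 81 (0.637%) were lower in R6/1-RGFP109, 126 in all (0.991%). These shares are the background against which each gene list is read below. The higher and lower counts both include genes that reached 1 FPKM in only 1 of the R6/1 groups. The selection fixed the direction of their ratios, though not the size. The share past the fold was 6.23% among genes with a mean under 2 FPKM, 1.32% from 2 to 5 FPKM, 0.454% from 5 to 20 FPKM, 0.0531% from 20 to 100 FPKM and 0.289% above, where Ttr and Enpp2 were the 2 genes past it. Large ratios were thus most frequent at low levels, and with at least 5 FPKM in either group 16 protein-coding genes were higher and 15 lower. At the lower edge of the selection, Syk (0.929 and 1.00 FPKM with vehicle and RGFP109) was just inside it and Fstl3 (1.00 and 0.966 FPKM, the first value just under the limit) was just outside.

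**Figure D1:**
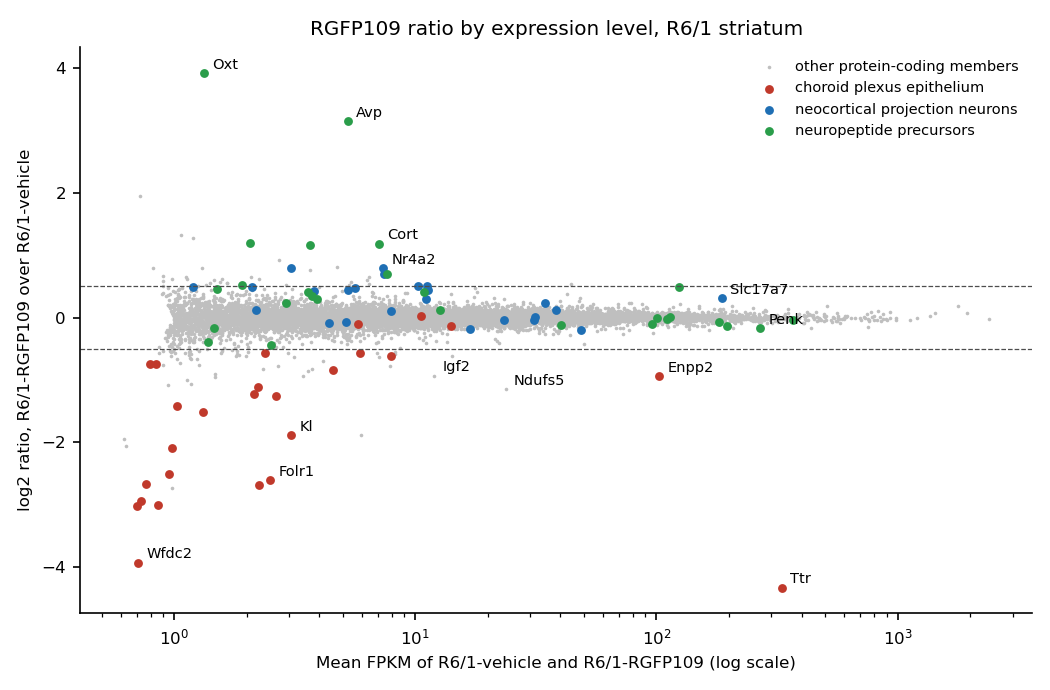
Each point is a protein-coding gene, with the mean FPKM of the R6/1 groups on a log axis and the log2 ratio of R6/1-RGFP109 to R6/1-vehicle on the vertical axis. Dashed lines mark ratios of -0.5 and 0.5. The points narrow around 0 with rising level, and genes of the choroid plexus list form the lower left edge, with Ttr (-4.33) far below genes of similar level.

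Markers of the dissected tissue were checked first. Ppp1r1b, which encodes DARPP-32, the integrator of dopamine signals in projection neurons, had 462 FPKM in R6/1-vehicle and 410 FPKM in R6/1-RGFP109. Penk, the enkephalin precursor of D2 neurons, had 286 and 255 FPKM, and Tac1, the substance P precursor of D1 neurons, had 206 and 188 FPKM. Ppp1r1b, Penk and Tac1 were thus abundant in both groups. All 18 genes of the list for projection neurons of both types were members, but so were all 24 of the neocortical list. Membership alone therefore does not identify the tissue. Genes of neighboring tissue were also present in both groups, among them Slc17a7, the vesicular glutamate transporter of cortical neurons (167 and 207 FPKM), and Ttr, the transthyretin gene of the choroid plexus (631 and 31.3 FPKM). Of the 18 lists for tissue and cell classes, 12 had no member past the fold, and the 3 whose medians lay farthest from 0 were choroid plexus epithelium, hypothalamic neuropeptides and meninges.

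**Figure D2:**
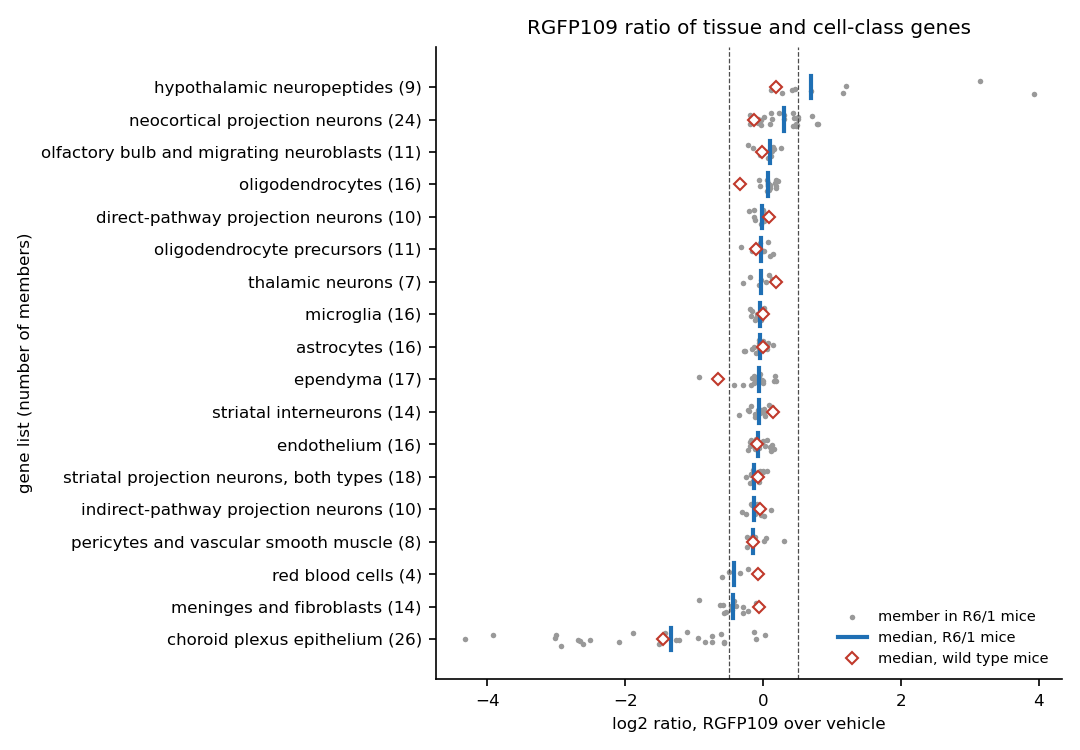
Each row is a list of genes of a tissue or cell class, with its number of members. Grey points are the log2 ratios of RGFP109 to vehicle in R6/1 mice, blue bars their medians, and open red diamonds the medians in wild type mice. Most medians lie near 0, the choroid plexus list lies at -1.34 in R6/1 and -1.46 in wild type mice, and the ependyma list differs between the genotypes (-0.05 and -0.65).

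The choroid plexus, the epithelium that secretes cerebrospinal fluid into the ventricles, gave the largest difference between the R6/1 groups. Of the 32 genes written for it 26 were members, and 23 of these were lower past the fold and 0 higher, with a median log2 ratio of -1.34 beside a background of 0.637% lower. Of the 26, 13 reached 1 FPKM in R6/1-vehicle alone and had to have a ratio below 0. Of the other 13, with at least 1 FPKM in both groups, 10 were lower and the median was -0.85. With a minimum of 0.1 FPKM all 32 genes entered, 29 were lower and the median was -1.24, and with a minimum of 5 FPKM 5 of 8 were lower and the median was -0.59. Ttr, the carrier of thyroxine and retinol-binding protein in cerebrospinal fluid on chromosome 18 from 20665250 to 20674326, had 631 FPKM in R6/1-vehicle and 31.3 FPKM in R6/1-RGFP109, a 20.1-fold difference (log2 ratio -4.33). Both are pooled values that 1 library can set, which was not tested. Ttr also had the largest difference in FPKM units of any protein-coding gene, at 599 FPKM. Summed over the 26 members, the list had 861 FPKM with vehicle and 158 FPKM with RGFP109. Without Ttr the sums were 230 and 126 FPKM, a 1.82-fold difference, so the sum was carried mostly by Ttr while the ratios of the other genes were lower as well. The only member above 0 was Cdr2, at a log2 ratio of 0.03. In bulk tissue, fewer cells of a type and less RNA per cell cannot be told apart, and how much plexus was dissected with each striatum is not recorded in the labels.

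The lower genes of this list cover several functions of the plexus. Among secreted proteins, Enpp2, which encodes autotaxin, had 135 FPKM with vehicle and 70.2 FPKM with RGFP109, and Wfdc2 had 1.37 and 0.0434 FPKM (log2 ratio -3.93). Kl, the klotho gene on chromosome 5 from 150952607 to 150993817, had 4.82 and 1.27 FPKM, a 3.81-fold difference. Sostdc1, a BMP and WNT antagonist, had 3.02 and 1.26 FPKM. Ion and water transport was represented by Kcnj13, an inward rectifier potassium channel (3.93 and 0.571 FPKM), Kcne2, a potassium channel subunit (1.61 and 0.339 FPKM), and Aqp1, the water channel of the apical membrane (1.33 and 0.13 FPKM). Clic6, an intracellular chloride channel protein, and Car12, a carbonic anhydrase, differed less, with log2 ratios of -0.61 and -0.56. Folr1, the folate receptor, had 4.33 and 0.668 FPKM, a 6.49-fold difference. Cldn2, the claudin of leaky epithelia, had 1.29 and 0.116 FPKM, and F5, coagulation factor V, had 1.56 and 0.151 FPKM. Of the list of 26 genes for potassium, chloride, water and bicarbonate transport, 4 were lower, and these were Aqp1, Kcne2, Clic6 and Car12, which also stand on the choroid plexus list.

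Otx2, the homeobox factor that specifies and maintains choroid plexus epithelium, had 1.51 FPKM with vehicle and 0.535 FPKM with RGFP109 (log2 ratio -1.42). Another homeobox factor of the list, Msx1, had 2.83 and 1.91 FPKM. Because Otx2 maintains this epithelium, RefSeq promoters (GRCm38.p6, 250 bases before to 50 after a start) were searched on both strands for the core that OTX2 binds, TAATCC. A promoter was found for 19 of the 26 members, and 4 of them (21.1%), those of Otx2, Mfrp, Ace and Abca4, held the core, beside 6.53% of all 19898 promoters. The promoters of the first 3 of these 4 in list order are shown. They are those of Otx2, of Mfrp, a membrane frizzled-related protein (1.66 and 0.251 FPKM), and of Ace, the angiotensin-converting enzyme (5.85 and 3.23 FPKM). The core is in capitals as it reads 5′ to 3′ on the gene's strand (GGATTA is the core on the other strand). The core starts at position -211 from the start in Otx2, at -134 in Mfrp and at -27 in Ace. The start used for Otx2 and for Ace lies inside the gene's locus in the files, and that of Mfrp at its edge. These matches describe letters, not binding.
Otx2, chr14:48665060-48665359, minus strand: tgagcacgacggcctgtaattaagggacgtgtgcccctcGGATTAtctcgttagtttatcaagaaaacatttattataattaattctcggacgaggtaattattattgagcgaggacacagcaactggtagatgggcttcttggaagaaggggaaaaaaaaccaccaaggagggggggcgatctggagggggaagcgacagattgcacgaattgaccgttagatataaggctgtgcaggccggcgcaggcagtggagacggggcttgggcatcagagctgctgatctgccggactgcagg
Mfrp, chr9:44101520-44101819, plus strand: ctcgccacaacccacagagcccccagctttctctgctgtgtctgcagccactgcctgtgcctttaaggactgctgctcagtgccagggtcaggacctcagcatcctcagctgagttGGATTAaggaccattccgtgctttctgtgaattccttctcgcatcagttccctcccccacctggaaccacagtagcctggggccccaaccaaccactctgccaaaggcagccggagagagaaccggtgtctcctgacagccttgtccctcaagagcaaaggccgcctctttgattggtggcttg
Ace, chr11:105967698-105967997, plus strand: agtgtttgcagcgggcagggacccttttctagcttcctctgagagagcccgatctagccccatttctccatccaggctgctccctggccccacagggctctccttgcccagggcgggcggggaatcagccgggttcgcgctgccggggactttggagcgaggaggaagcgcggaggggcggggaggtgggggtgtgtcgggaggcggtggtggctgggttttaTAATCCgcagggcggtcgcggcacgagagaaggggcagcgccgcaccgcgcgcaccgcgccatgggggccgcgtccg
The forkhead core TGTTTAC and the cAMP response element TGACGTCA were found in 0 of the 19 promoters, beside 2.99% and 2.36% of all promoters, and the TATA box TATAAA in 5 of them (26.3%), beside 12.2%. Counted by gene over all members, as the list was, the shares were 6.81% for the OTX2 core and 2.92% for the forkhead core. They were 3.63% for the cAMP response element and 8.43% for the TATA box. Motifs were counted each on its own, including where they overlap.

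The same genes were low in treated wild type mice, which share no library with the R6/1 mice. Of the 26 members 24 were lower past the fold in WT-RGFP109 than in WT-vehicle, with 0 higher and a median log2 ratio of -1.46, beside a background of 1.09% lower, and all 23 genes lower in R6/1 mice were among the 24. The summed level was 1781 FPKM in WT-vehicle and 475 FPKM in WT-RGFP109, a 3.75-fold difference, beside 5.46-fold in R6/1 mice. Without Ttr the difference was 2.15-fold in wild type and 1.82-fold in R6/1 mice, so the order of the genotypes turned with this 1 gene. Ttr itself had 1395 and 295 FPKM in the wild type groups (log2 ratio -2.24). Aqp1 was at a log2 ratio of -2.93 in R6/1 and -1.03 in wild type mice, and Wfdc2 at -3.93 and -2.06, the widest gaps after Ttr. Whether the genotypes differ in these ratios was not tested, since each group has 1 pooled value. The list also differed between the vehicle groups, whose libraries are those of the comparisons above. Of the 26 members 21 were lower in R6/1-vehicle than in WT-vehicle and 0 higher, with a median log2 ratio of -0.95. Ttr had 1443 FPKM in WT-vehicle and 606 FPKM in R6/1-vehicle in that comparison.

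Genes of the ventricle lining and of the brain surface are given for both genotypes, whose difference was not tested. Of the ependyma list, genes of the ciliated cells that line the ventricle, 1 of 17 members was lower in R6/1-RGFP109 and 13 of 17 in WT-RGFP109, with medians of -0.05 and -0.65. Foxj1, the master regulator of motile cilia, had 5.07 and 5.09 FPKM in the R6/1 groups and 6.52 and 4.14 FPKM in the wild type groups. Ccdc153 had log2 ratios of -0.29 in R6/1 and -0.80 in wild type mice, and Tmem212 had -0.13 and -0.98. The low choroid plexus genes in R6/1 mice were thus seen beside ependymal genes at nearly equal levels, whereas in wild type mice both lists were low. Mia was the ependyma gene lower in R6/1 mice, with 4.52 FPKM with vehicle and 2.35 FPKM with RGFP109.

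The meninges and fibroblast list had 5 of 14 members lower past the fold and 0 higher in R6/1 mice. All 14 ratios were below 0, with a median of -0.44 beside -0.07 in wild type mice. Of the 14, 2 reached 1 FPKM in R6/1-vehicle alone and had to have a ratio below 0. Of the 12 with at least 1 FPKM in both groups, 5 were lower and the median was -0.43. Igf2, the insulin-like growth factor made by meninges and choroid plexus in the adult brain, had 15.7 FPKM with vehicle and 8.25 FPKM with RGFP109, and 18.2 and 8.81 FPKM in the wild type groups. Fmod, a collagen-binding proteoglycan, had log2 ratios of -0.63 in R6/1 and -0.20 in wild type mice. Aldh1a2, which makes retinoic acid in the meninges, was at -0.58 and 0.003. Crabp2, a retinoic acid carrier, was at -0.57 and -0.49, and Ogn, a small proteoglycan, at -0.53 and -0.24. The general meningeal genes Dcn (-0.39), Col1a1 (-0.46) and Col1a2 (-0.22) stayed within the fold in R6/1 mice. In the insulin-like growth factor system 2 of 13 members were lower, Igf2 and Igfbp2 (17.1 and 11.2 FPKM, chosen after its value was seen), while the receptor genes Igf1r (0.07), Igf2r (-0.10) and Insr (-0.02) were near 0. In the retinoid list of 17 members, 4 were lower, namely Ttr, Aldh1a2, Crabp2 and Stra6, the receptor for retinol-binding protein (1.61 and 1.12 FPKM), and the retinoic acid receptor gene Rarb was at -0.09.

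**Figure D3:**
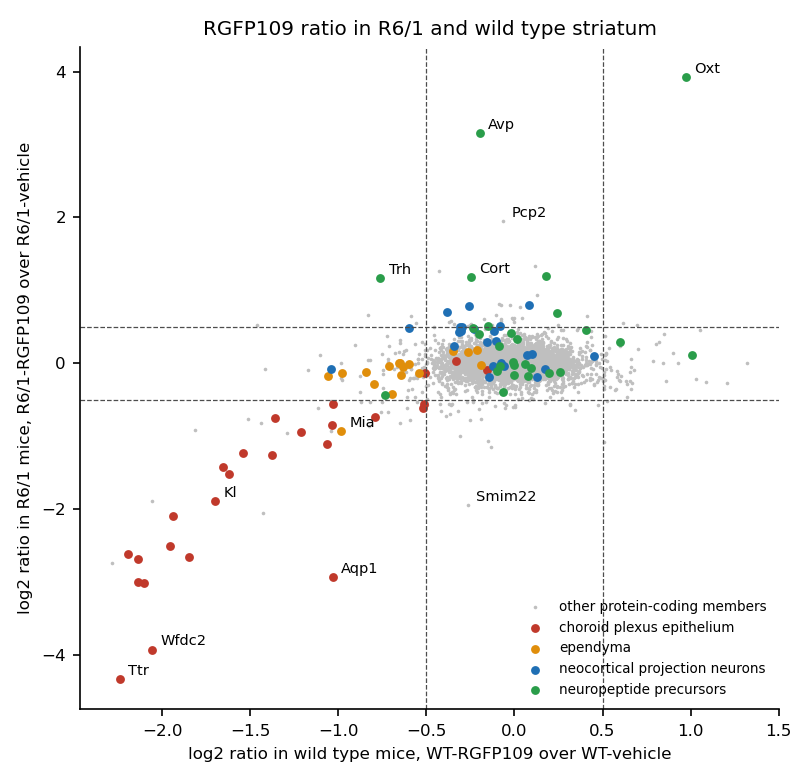
Each point is a protein-coding gene, with the log2 ratio of RGFP109 to vehicle in wild type mice on the horizontal axis and in R6/1 mice on the vertical axis, and dashed lines at -0.5 and 0.5. Choroid plexus genes lie low on both axes, ependymal genes are spread mostly along the horizontal axis, and Avp and Oxt lie high on the vertical axis.

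Neocortical neuron genes leaned the other way. Of 24 members of the list for neocortical projection neurons, 5 were higher past the fold in R6/1-RGFP109 and 0 lower, with a median log2 ratio of 0.30, beside a background of 0.354% higher. Nr4a2, an orphan nuclear receptor of the deep cortex and claustrum on chromosome 2 from 57107226 to 57124003, had 5.35 FPKM with vehicle and 9.34 FPKM with RGFP109, a 1.74-fold difference. Nxph3, a secreted neurexin ligand, had 5.62 and 9.19 FPKM. The basic helix-loop-helix factors Neurod6 (8.44 and 12.02 FPKM) and Neurod2 (9.26 and 13.1 FPKM) lay just past the fold, at 0.51 and 0.50. Close below it were Cplx3 (0.49), Neurod1 (0.48), Ctgf (0.47), Emx1 (0.45), Tbr1 (0.44) and Fezf2 (0.43), and 18 of the 24 ratios were above 0. Of the 24, 1 reached 1 FPKM in R6/1-RGFP109 alone and had to have a ratio above 0. The 23 with at least 1 FPKM in both groups had 5 higher and a median of 0.30. Slc17a7, the most abundant gene of the list, had a ratio of 0.31.

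Not all cortical genes shared this. Tle4 (-0.04), Nrn1 (-0.03), Lamp5 (-0.19), Egr3 (-0.19) and Kcnh3 (0.01) did not lean upward, and the layer genes Cux2 (0.11) and Rorb (0.13) were near 0. In wild type mice the same list had 0 members higher and 2 lower, with a median of -0.13, and Nr4a2 had 10.9 FPKM with vehicle and 11.5 FPKM with RGFP109. The genotype comparison shares the R6/1-vehicle libraries with the treatment comparison, so its values are given only side by side. In that table Nr4a2 had 11.3 FPKM in WT-vehicle and 5.17 FPKM in R6/1-vehicle, and Nxph3 had 16.3 and 5.42 FPKM. The amount of cortex in each dissection is not in the labels, and its part in these ratios was not tested.

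The E-box CAGATG, which NEUROD factors bind, was found in 4 of the 15 promoters that matched the neocortical list (26.7%). The share was 14.6% of all promoters and 13.5% of those of the members. The promoter of Neurod2, itself such a factor and the only gene of these 4 past the fold, is shown. The E-box, in capitals, starts at position -118. The same E-box was found in 21.1% of the choroid plexus promoters, 23.8% of the neuropeptide precursor promoters, 31.4% of those of the higher and 22.2% of those of the lower protein-coding genes. The other 3 promoters were those of Cux2, Lamp5 and Mef2c, which were within the fold.
Neurod2, chr11:98329596-98329895, minus strand: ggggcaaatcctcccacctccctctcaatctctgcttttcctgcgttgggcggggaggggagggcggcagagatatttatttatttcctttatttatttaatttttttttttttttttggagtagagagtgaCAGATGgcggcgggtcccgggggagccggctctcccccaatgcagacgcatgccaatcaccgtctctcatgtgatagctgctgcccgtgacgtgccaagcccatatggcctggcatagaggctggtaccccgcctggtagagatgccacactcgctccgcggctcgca

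Neuropeptide genes held the highest ratios of the protein-coding genes. Of 27 neuropeptide precursor genes among the members, 7 were higher past the fold and 0 lower, with a median of 0.24, and the hypothalamic list, which overlaps it, had 5 of 9 higher with a median of 0.69. Oxt is a member through the RGFP109 group alone and had to have a ratio above 0. Without it, the genes with at least 1 FPKM in both groups gave 6 of 26 higher with a median of 0.18 for the precursors, and 4 of 8 with a median of 0.57 for the hypothalamic list. With a minimum of 5 FPKM the precursor median was 0.005 (4 of 16 higher), and with a minimum of 0.1 FPKM all 16 hypothalamic genes had a median of 0.44, with 7 higher and 1 lower. Oxt, the oxytocin gene on chromosome 2 from 130576169 to 130577053, had 0.121 FPKM with vehicle and 2.54 FPKM with RGFP109 (log2 ratio 3.92). Its neighbor Avp, the vasopressin gene from 130580677 to 130582541, had 1.02 and 9.45 FPKM, a 9.28-fold difference. Gal, the galanin precursor, had 1.23 and 2.90 FPKM, and Trh, the thyrotropin-releasing hormone precursor, had 2.23 and 5.05 FPKM. Cartpt, the CART precursor, had 5.79 and 9.40 FPKM. These 5 genes are typical of hypothalamic neurons, and Avp, Oxt and Trh are low in the striatum. The pooled values do not show whether 1 library or many carried any of the 5. This leaves the ratios of Avp, Oxt and Trh in particular in doubt.

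Among the peptide precursors not named above, Cort, the cortistatin gene, had 4.29 FPKM with vehicle and 9.82 FPKM with RGFP109, a 2.29-fold difference. It lies on chromosome 4 from 149125191 to 149126741. Nppc, the C-type natriuretic peptide precursor, had 1.56 and 2.26 FPKM. Cck, the cholecystokinin gene, was within the fold at 103 and 145 FPKM (0.48), and so were Vip (0.41), Tac2 (0.41), Crh (0.46) and Adcyap1 (0.34). Abundant peptides of the striatum itself were nearly equal in the R6/1 groups, with Sst at 374 and 366 FPKM, Npy at 114 and 115 FPKM, and Pdyn, the dynorphin precursor of D1 neurons, at 41.8 and 38.5 FPKM. The granins Scg2 (-0.07), Chga (-0.01), Chgb (-0.02) and Vgf (-0.11), which build dense-core vesicles, were near 0 as well. The lowest of the list was Grp, the gastrin-releasing peptide gene, at -0.44.

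In wild type mice 3 of these 27 genes were higher and 2 lower, with a median of -0.004. Avp had 10.7 and 9.38 FPKM in WT-vehicle and WT-RGFP109, Cort had 15.6 and 13.1 FPKM, and Trh had 14.2 and 8.38 FPKM (log2 ratio -0.76, beside 1.16 in R6/1 mice). Oxt was higher in both genotypes, with 0.462 and 0.954 FPKM in the wild type groups. In the genotype table, which shares the R6/1-vehicle libraries, Avp had 11.1 FPKM in WT-vehicle and 0.983 FPKM in R6/1-vehicle, Trh had 14.7 and 2.15 FPKM, and Cort had 16.1 and 4.14 FPKM. In the 21 promoters that matched the precursor list, the cAMP response element TGACGTCA was found in 4 (19.05%), those of Sst, Cartpt, Scg2 and Chgb, of which Cartpt alone was past the fold, beside 2.36% of all promoters and 3.63% of those of the members.

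**Figure D4:**
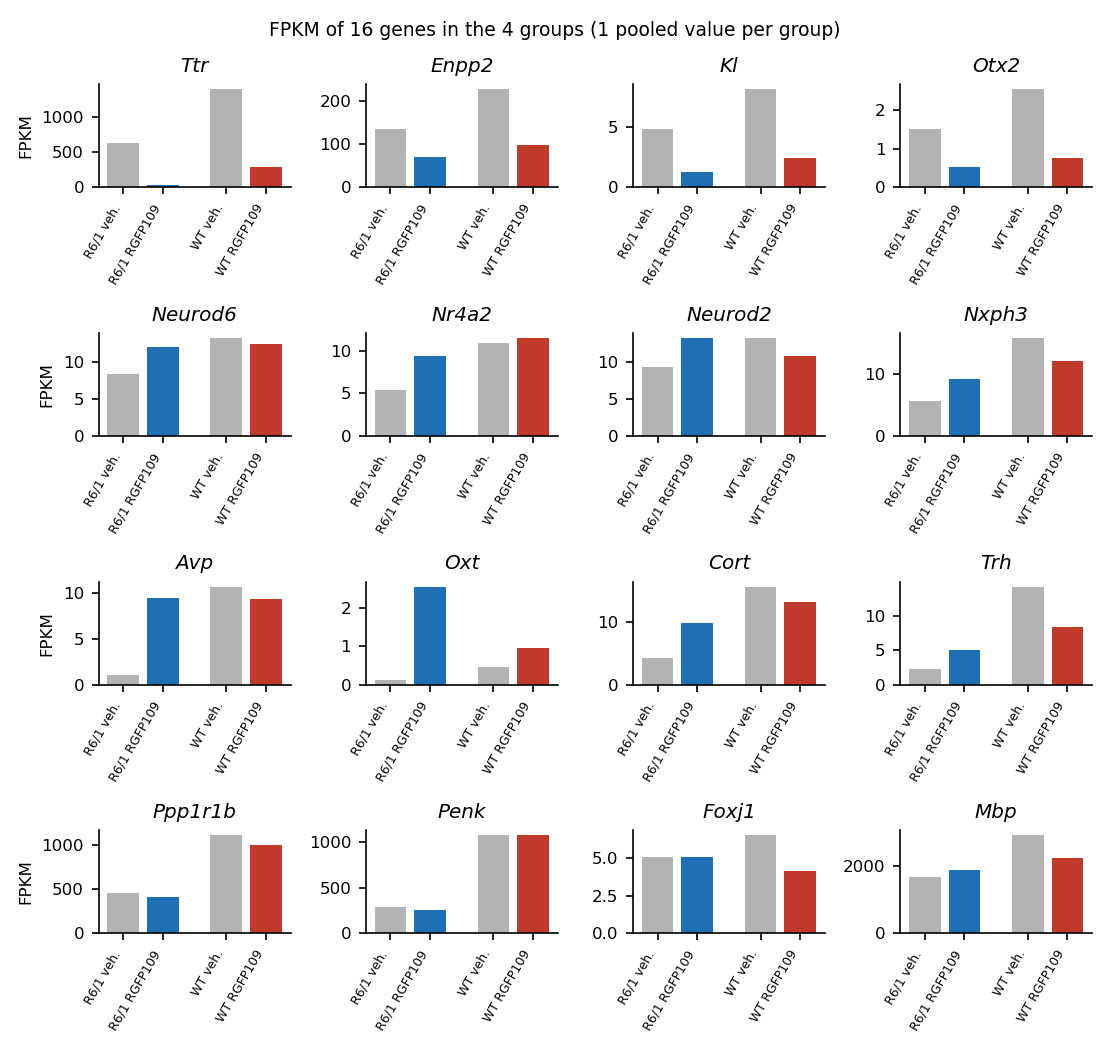
Bars give the pooled FPKM of 16 genes in R6/1-vehicle, R6/1-RGFP109, WT-vehicle and WT-RGFP109, with 1 value per group and therefore no error bar. The R6/1 bars and the wild type bars come from separately scaled tables. Choroid plexus genes (first row) are lower after RGFP109 than after vehicle in both genotypes. Cortical and peptide genes (the middle rows) are higher in R6/1-RGFP109 than in R6/1-vehicle. Penk and Ppp1r1b differ little between the R6/1 groups.

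The genes of the drug's target machinery were at the same level with and without the drug. Hdac1 had 4.32 FPKM with vehicle and 4.05 FPKM with RGFP109, Hdac2 had 66.9 and 64.4 FPKM, and Hdac3 had 61.3 and 61.5 FPKM. Of the 29 class I HDAC and corepressor genes, 0 were past the fold, 25 lay within 0.1 of 0, and the median log2 ratio was -0.001. The widest were Sap30, a Sin3 complex subunit, at 0.32 (5.204 and 6.53 FPKM), and Chd4, the NuRD remodeler, at -0.12. The corepressors Ncor1 (-0.05), Sin3a (0.01), Rcor1 (-0.08) and Rest (0.00) were near 0. The 14 class II and IV HDAC and sirtuin genes had a median of 0.06 and the 26 acetyltransferase and bromodomain genes a median of -0.003, with 0 past the fold in each list. All 26 acetyltransferase and bromodomain genes, Ep300 (-0.08) and Crebbp (-0.01) included, lay within 0.1 of 0. The 27 Polycomb genes, whose complexes place repressive histone marks, also had 0 past the fold (median 0.005), and so did the 21 genes for huntingtin and its partners, with Htt at 19.7 and 19.4 FPKM. Over all protein-coding members 0.991% were past the fold, and the quartiles of the ratio were -0.04 and 0.05. A list with 0 past the fold and most genes within 0.1 of 0 is thus close to that background.

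Genes that HDAC inhibitors are known to induce in other settings mostly did not differ. Of 18 such members, 1 was higher past the fold and 0 lower, with a median of 0.03, and the higher gene was Nr4a2. Cdkn1a, the p21 cell cycle inhibitor and the classical response gene, had 5.80 FPKM with vehicle and 7.39 FPKM with RGFP109 (0.35). Bdnf, the neurotrophin that cortical neurons supply to the striatum, had 1.83 and 2.27 FPKM (0.30). H1f0, the linker histone that accumulates on deacetylase inhibition, had 49.5 and 48.7 FPKM. Gsn (-0.03), Tubb3 (0.03), Mt1 (0.03), Mt2 (-0.03) and Slc1a2 (0.06) were near 0, and Gadd45b was the lowest, at -0.36. Of the 20 histone genes on the list 1 was higher and 1 lower. The higher gene reached 1 FPKM in R6/1-RGFP109 alone and had to have a ratio above 0. Of the 18 with at least 1 FPKM in both groups, 0 were higher and 1 was lower. The lower gene was Hist1h4i (4.77 and 2.67 FPKM). Hist1h4k, an H4 gene off the list that was noticed after its value was seen, had 1.60 and 0.741 FPKM. Hist1h4k reached 1 FPKM in R6/1-vehicle alone, so the direction of its ratio was fixed as well. H4 genes are near-identical copies, and their shares of reads are uncertain.

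Transcripts of the striatal projection neurons were within the fold throughout. Of the 18 genes shared by both types, 0 were past it, 16 had ratios below 0, and the median was -0.13 in R6/1 and -0.08 in wild type mice. Rgs9, the regulator that ends dopamine receptor signaling, had 74.9 FPKM with vehicle and 66.6 FPKM with RGFP109, and Rasd2, a striatal GTPase, was the lowest at -0.24 (105 and 88.3 FPKM). Drd1 had 29.5 and 26.9 FPKM and Drd2 had 42.3 and 35.6 FPKM, with ratios of -0.13 and -0.25, and Adora2a, the adenosine receptor of D2 neurons, had 34.7 and 32.02 FPKM. The lists for D1 neurons (10 members, median -0.01), D2 neurons (10 members, -0.13) and striatal interneurons (14 members, -0.06) had 0 genes past the fold. For scale, Drd2 had 35.6 FPKM in R6/1-RGFP109, beside 94.2 FPKM in WT-vehicle of the separately scaled wild type table, and Penk had 255 FPKM beside 1076 FPKM.

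Genes of synaptic transmission were also mostly within the fold. Dopamine signaling (19 members, median -0.12), glutamate receptors (24 members, -0.05), GABA receptors, synthesis and transport (21 members, -0.05), potassium channels (41 members, -0.04) and synaptic vesicle release (34 members, 0.02) had 0 genes past the fold. In this order, 17, 20, 16, 26 and 14 ratios were below 0 in R6/1 mice, beside 11, 6, 3, 19 and 11 in wild type mice. Whether the genotypes differ in this was not tested. Among the 23 receptors for serotonin, noradrenaline and acetylcholine, 1 was higher, Chrna4, the alpha4 nicotinic subunit of high-affinity receptors, with 4.33 FPKM with vehicle and 6.25 FPKM with RGFP109. Gfra2, a coreceptor for neurturin, was the highest of the 13 neurotrophin and GDNF family genes and lay at the limit without passing it, at 0.50.

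Responses to activity, hormones and interferon were small. Of 29 activity-dependent early genes, 1 was higher (Nr4a2) and 1 lower (Inhba, an activin subunit, 1.18 and 0.82 FPKM), with a median of 0.09. Inhba reached 1 FPKM in R6/1-vehicle alone and had to have a ratio below 0. Of the 28 early genes with at least 1 FPKM in both groups, 1 was higher and 0 lower. Fos had 9.70 FPKM in both R6/1 groups, while Fosb (-0.09) and Egr1 (0.07) were close to 0. In the list of 18 glucocorticoid-responsive genes 17 ratios were above 0, with a median of 0.14 beside -0.01 in wild type mice, and the 1 gene past the fold was Plin4, a lipid droplet coat gene, with 2.70 and 4.64 FPKM. The receptor's standard readouts Fkbp5 (0.09), Sgk1 (0.22) and Tsc22d3 (0.15) were within the fold. Of 25 interferon-stimulated genes 1 was higher, Usp18, a deISGylase that damps interferon signaling (1.24 and 1.85 FPKM), and the median was 0.07. Ifit1 (0.36), Ifit2 (0.15) and Ifit3 (0.27) were within the fold. The circadian clock list (19 members) and the MAP kinase feedback list (17 members) had 0 past the fold.

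Glial and vascular genes were within the fold in R6/1 mice. The 16 oligodendrocyte genes had a median of 0.08, with 14 ratios above 0, beside -0.34 in wild type mice. Mbp, the myelin basic protein gene, had 1667 FPKM with vehicle and 1901 FPKM with RGFP109 in R6/1 mice, and 2925 and 2234 FPKM in the wild type groups. Mog, a myelin surface glycoprotein gene, had ratios of 0.07 and -0.35. Myelin genes therefore leaned in opposite directions in the genotypes, all by less than the fold except for 1 gene in wild type mice. The 16 astrocyte genes had a median of -0.05, the 16 microglia genes -0.05, the 16 endothelial genes -0.08 and the 8 genes of pericytes and smooth muscle -0.14, and 0 were past the fold in each. Of the 4 red blood cell entries, 1 was lower, Hbb-bt (9.92 and 6.57 FPKM).

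Housekeeping pathways were mostly close to 0. All 31 proteasome subunit genes lay within 0.1 of 0, as did 61 of the 64 oxidative phosphorylation genes, 26 of the 28 heat shock and chaperone genes and 26 of the 27 cholesterol genes. The quartiles over all protein-coding members were -0.04 and 0.05, so most of those genes lay within 0.1 of 0 as well. Ndufs5, a complex I subunit gene, stood apart from its complex with 32.7 FPKM with vehicle and 14.7 FPKM with RGFP109. Its locus in the files, chromosome 4 from 123712710 to 123718186, is also that of the entry BC002163, so the division of reads between these entries is uncertain. The 63 ribosomal protein genes had a median of 0.03 and ranged from -0.37 for Rpl19 to 0.31 for Rpl11, and the 20 genes of the unfolded protein response had a median of 0.03. Of all 49 lists, 31 with 621 genes had no member past the fold, and their medians ran from -0.14 to 0.10.

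**Figure D5:**
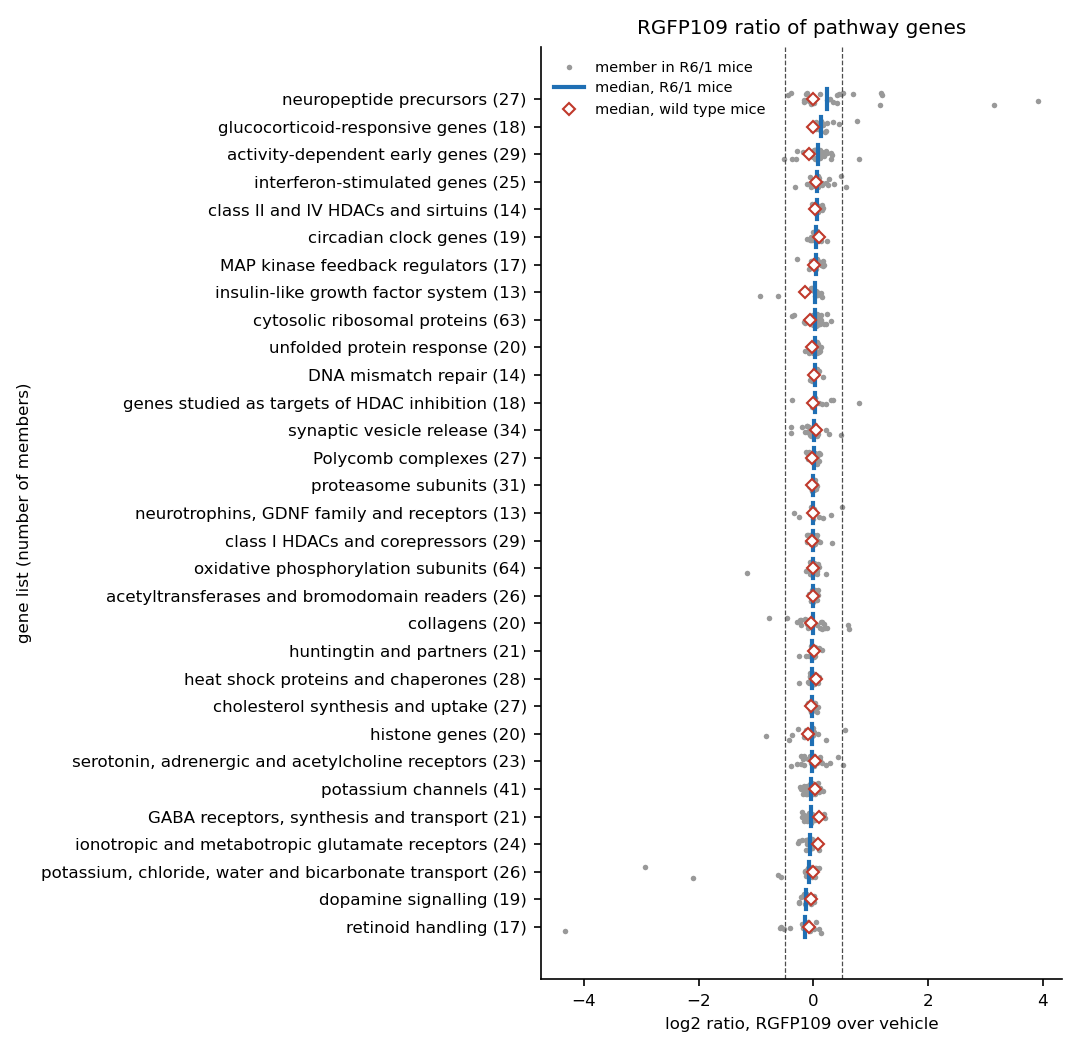
Each row is a list of pathway genes with its number of members, with the ratios in R6/1 mice as grey points, their medians as blue bars and the medians in wild type mice as open red diamonds. The medians lie between -0.15 and 0.24, and the points far from 0 are neuropeptide genes to the right and Ttr, Aqp1 and Kcne2 to the left.

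Of the 45 higher genes, 28 stood on no list, as did 45 of the 81 lower genes. Among the 15 highest protein-coding ratios, Pcp2, a Purkinje cell gene, had 0.265 FPKM with vehicle and 1.17 FPKM with RGFP109, and Cbln1, the cerebellin precursor that organizes synapses, had 1.85 and 3.57 FPKM. Ovol2, a zinc finger factor of epithelia, had 0.684 and 1.72 FPKM. Pcdha4 (0.584 and 1.54 FPKM) shares exons with the other clustered protocadherins, so its value is uncertain. Rxfp1, the relaxin receptor, had 0.939 and 1.67 FPKM. Pcp2, Ovol2, Pcdha4 and Rxfp1 are members through the RGFP109 group alone and had to have a ratio above 0. The best expressed of all higher genes, chosen after its value was seen, was 3110035E14Rik, with 35.9 FPKM with vehicle and 52.4 FPKM with RGFP109, and 70.3 and 59.4 FPKM in the wild type groups.

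Several lower genes outside the lists had low levels similar to those of the choroid plexus genes. Prr32 had 1.74 FPKM with vehicle and 0.219 FPKM with RGFP109, and 3.33 and 0.644 FPKM in the wild type groups. The entry 1500015O10Rik had 9.41 and 2.51 FPKM, and 17.5 and 4.16 FPKM in the wild type groups, and Wdr86 had 1.05 and 0.214 FPKM. Smim22 had 1.01 and 0.225 FPKM in the R6/1 groups, and 1.41 and 1.17 FPKM in the wild type groups. A few other lower genes were chosen after their values were seen and stand for no list, while 0 of 16 microglia genes were past the fold. S100a8, a neutrophil protein, had 1.30 and 0.59 FPKM in R6/1 mice but 0.898 and 1.30 FPKM in wild type mice. The MHC class II genes H2-Ab1 and H2-Eb1 had ratios of -0.65 and -0.60 in R6/1 mice, and -0.32 and -0.01 in wild type mice. Ccl12, a monocyte chemokine, had 1.51 and 0.736 FPKM. Every gene named in this paragraph except 1500015O10Rik is a member through R6/1-vehicle alone and had to have an R6/1 ratio below 0.

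The R6/1 and wild type pairs overlapped mainly in the lower genes. In wild type mice 60 of the same protein-coding members were higher (0.472%) and 138 lower (1.09%), 198 in all (1.56%). Of the 81 genes lower in R6/1 mice, 45 were also lower in wild type mice and 2 were higher there. Those of the 81 that were under 1 FPKM in R6/1-RGFP109 had to have an R6/1 ratio below 0. The wild type values played no part in the selection. Of the 45 genes higher in R6/1 mice, 3 were higher and 5 lower in wild type mice, 33 had wild type ratios below 0, and their wild type median was -0.09. In all, 48 genes were past the fold in the same direction in both, which is 38.1% of the 126 in R6/1 mice and 24.2% of the 198 in wild type mice, and 23 of the 48 stood on the choroid plexus list. Of the 52 lower genes on none of the choroid plexus, ependyma and meninges lists, 20 were lower in wild type mice. Across the 12718 protein-coding genes Pearson's r between the ratios was 0.31 and Spearman's rho 0.01, and without the choroid plexus list r was 0.12. These are correlations across genes, which are not independent replicates.

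The widest differences between the genotypes' ratios in the direction of R6/1 mice were those of Avp (3.35 on the log2 scale), Oxt (2.95), Pcp2 (2.02), 1700024G13Rik (1.99), Trh (1.93) and Ovol2 (1.70). In the other direction they were Ttr (-2.09), Aqp1 (-1.90), Wfdc2 (-1.87), Smim22 (-1.68), S100a8 (-1.59) and Msmp (-1.48). Most of these genes were under 3 FPKM in R6/1-vehicle, Ttr being the exception. Oxt, Pcp2 and Ovol2 are members through R6/1-RGFP109 alone, and Aqp1, Wfdc2, Smim22, S100a8 and Msmp through R6/1-vehicle alone. The direction of their R6/1 ratios was therefore fixed by the selection.

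Entries for microRNAs and small nucleolar RNAs made up most of the large ratios in the whole table and were kept apart from the genes above. Over all 13719 members, 225 (1.64%) were higher and 220 (1.6%) lower, and 300 of these 445 (3.24% of members) were among the 451 microRNA, small nucleolar and guide RNA entries, of which 66.5% were past the fold (37.5% higher and 29% lower). In wild type mice 202 of all members were higher (1.47%) and 269 lower (1.96%), 471 in all (3.43%). An R6/1 group was listed at 0 for 152 of the 451. Of the 361 microRNA members 318 matched a RefSeq hairpin, of 56 to 147 bases with a median of 79, while the reads were 51 bases long. Mir137, Mir99a and Mir221, chosen after their values were seen, show how such entries behave, and their mature products are printed with the seed, bases 2 to 8, in capitals to show which microRNAs are meant.
mmu-miR-137-3p: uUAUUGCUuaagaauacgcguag
mmu-miR-99a-5p: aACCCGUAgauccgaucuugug
mmu-miR-221-3p: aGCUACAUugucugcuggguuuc
Their seeds differ, so they belong to no common seed group. Mir137 was listed at 56.0 FPKM in R6/1-vehicle and at 0 in each of the other groups. Mir99a was listed at 29.02 FPKM in R6/1-vehicle, at 0 in R6/1-RGFP109 and WT-vehicle, and at 33.3 FPKM in WT-RGFP109. Mir221 was listed at 0 in R6/1-vehicle and at 14.7, 16.1 and 24.7 FPKM in R6/1-RGFP109, WT-vehicle and WT-RGFP109. Each of the 3 was listed at 0 in at least 1 group and well above 1 FPKM in another, and no fold is given for them.

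Of 455 long noncoding RNA members, 10 were higher and 5 lower (3.30% past the fold). Hotairm1, an RNA of the HoxA cluster, had 1.497 FPKM with vehicle and 2.96 FPKM with RGFP109, and 0.603 and 0.357 FPKM in wild type mice. Snhg9, a small nucleolar RNA host gene, had 11.2 and 6.13 FPKM. These 2 were chosen after their values were seen, and Bc1, a neuronal RNA with 1.34 FPKM in R6/1-vehicle, was listed at 0 in each of the other groups.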

How the data were processed

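Total RNA (380 ng) of 24 striata was sequenced in 2 pools of 12 libraries as single reads of 51 bases. The labels do not assign libraries to pools. By the processing notes of the submitters and the methods of the study, the reads were aligned to RefSeq transcripts of mm10 with STAR 2.5.0b. The authors computed FPKM with Cufflinks 2.2.1 and ran Cuffdiff on each pair of groups. The value it gives for all libraries of a group is called pooled here. The authors deposited 6 tables with 1 FPKM value per group. The columns of fold changes, test statistics, p-values and q-values of their comparisons were not used.

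Groups followed the sample titles. From the deposited FPKM values, log2((value + 0.05)/(value + 0.05)) was computed within a pair with Python 3.11.15, numpy 2.4.6 and pandas 2.3.3 and checked on simulated data. The planned limma fit needs values per library and was not made. Biotypes came from RefSeq (GRCm38.p6), which matched 24138 of 24341 entries and 13682 of 13719 members. Coordinates are those of the tables (mm10), with 1 added to the start. Members and gene lists were chosen with earlier results of these data known, and no list was tested. Genes were named by rule: the 15 highest and lowest ratios, the 5 largest differences in FPKM each way, the first 3, highest and lowest genes of each list, all genes of lists with at least 25% of members past the fold and of the class I HDAC, HDAC inhibition and neuropeptide lists, and the 6 widest differences from wild type each way. The values of some genes that the rule names are not reported here. The 15 extremes of all members were short noncoding RNA entries, mostly microRNAs and small nucleolar RNAs, so the 15 extremes of protein-coding members were used, a choice made after seeing the data. Alternatives covered the pseudocount, centring, the table used, the FPKM minimum, the status given by Cuffdiff and the fold.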

Additional observations from a re-analysis of the deposited data

How the results depend on the processing

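With all 13719 entries, 445 were past the fold in R6/1 mice and 471 in wild type mice. A minimum of 0.1 FPKM gave 971 and 1152, a minimum of 5 FPKM 296 and 265, and no minimum 1483 and 2076. An absolute log2 ratio above 1 gave 265 and 235, and a ratio above 1.2 or below its inverse 923 and 1270. Only genes with status OK gave 257 in R6/1 mice. Protein-coding members alone, chosen after seeing the data, gave 126 and 198, and without the choroid plexus, ependyma and meninges lists 97 and 158. The share of higher entries among those past the fold was 50.6% with all members and 35.7% among protein-coding ones in R6/1 mice. A pseudocount of 1 FPKM, none, centring on the median and values from the tables with another group kept both counts within 1.5 times, but with 1 FPKM the protein-coding count in R6/1 mice was 58 (18 higher, 40 lower). No log2 ratio of the 316 named genes past the fold and no list median past it changed sign under the alternatives run. With 1 FPKM as pseudocount 68 of the 316 moved by 0.1 or more on the log2 scale, at most by 2.74, for Wfdc2, and with a minimum of 5 FPKM the choroid plexus median moved by 0.75 toward 0. Members with at least 1 FPKM in both groups, an alternative chosen after seeing the data, had a choroid plexus median of -0.85 and a hypothalamic median of 0.57. No paired analysis was possible because the tables hold 1 pooled value per group, although the labels number the replicates. Leaving out each replicate was not run for the same reason. The unknown depth and spread limit most what can be said of genes under 2 FPKM.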

Other observations

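Of 1473 protein-coding genes whose higher R6/1 value was between 0.3 and 1 FPKM, 52 were higher and 85 lower in R6/1-RGFP109 (9.30% past the fold). The genes named here were chosen after their values were seen. Choroid plexus genes below the minimum were low as well, with Slc4a5, a bicarbonate cotransporter, at 0.801 FPKM with vehicle and 0.0731 FPKM with RGFP109, Tmem72 at 0.786 and 0.0942 FPKM, and Col8a1 at 0.801 and 0.315 FPKM. In wild type mice Slc4a5 had 1.94 and 0.428 FPKM. Chemokine genes of this range went both ways. Ccl2, the monocyte attractant, had 0.86 and 0.08 FPKM, Ccl7 had 0.36 and 0.13 FPKM, and Ccl5, a T cell attractant, had 0.24 and 0.80 FPKM. Ghrh, the growth hormone-releasing hormone gene of the hypothalamus, had 0.17 and 0.56 FPKM in R6/1 mice, and 0.56 and 0.39 FPKM in wild type mice.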
